A study of Homo sapiens with 24 samples.

Results

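Zinc finger gene clusters outside chromosome 19 were described by 818 of the 153244 genomic regions in which histone marks were counted. They are all regions whose start lies in 10 intervals of the human genome (build hg19). The intervals were set by position, with no measured value in the rule, though earlier results of these data were known. They are chr7:63400000-65000000 (proximal, 230 regions), chr7:148750000-149500000 (distal, 68 regions), chr8:145900000-146300000 (51 regions), chr10:37900000-38700000 (141 regions), chr6:28000000-28500000 (33 regions), chr3:44400000-44850000 (55 regions), chr1:247050000-247600000 (54 regions), chr5:178100000-178600000 (71 regions), chr12:133450000-133850000 (64 regions) and chr16:3100000-3550000 (51 regions). Together they span 6.4 Mb, of which 22.8% is covered by regions. Below, each interval is called by its chromosome.

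The libraries are CUT&Tag, in which an antibody against a histone mark directs a transposase to cut and tag the DNA nearby. The cells labelled ZNF436kd, in which the KRAB zinc finger gene ZNF436 was knocked down, were compared with cells labelled ctrl. Both groups were ventricular-like cardiomyocytes grown from H9, an embryonic stem cell line of human origin, and taken at day 15 of differentiation. Each of 4 marks was measured in 3 ZNF436kd and 3 ctrl libraries (24 libraries), from 100000 cells a sample per the labels' protocols. How the knockdown was made and what the ctrl cells received are not given in the sources used here. Nothing in the labels says that replicates are separate cultures. The p-values therefore rest on the spread between libraries alone, which may be technical. Without an hg19 annotation, neither the knockdown nor the cell type could be checked, and no region was assigned to a gene.

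KRAB zinc finger genes encode DNA-binding repressors, many of which bind transposable elements and recruit TRIM28 and SETDB1. SETDB1 deposits H3K9me3, a mark of silenced chromatin. The genes arose by tandem duplication and lie in clusters, where H3K9me3 is known to cover gene bodies, most of all the exon that encodes the finger arrays, while the promoters carry H3K4me3. H3K4me1 marks enhancers and promoter flanks, and H3K27ac marks active promoters and enhancers. Chromosome 19 holds the largest clusters, and those on other chromosomes are smaller and include older genes, such as the SCAN domain genes on chr6 and chr16.

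A background list of 73 zinc finger genes, all found by symbol in the RefSeq gene table, gives the names that go with the intervals. Examples are ZNF92 and ZNF117 on proximal chr7, ZNF282 on distal chr7, ZNF33A on chr10, ZKSCAN4 on chr6, ZNF445 on chr3, ZNF124 on chr1, ZNF354C on chr5, ZNF10 and ZNF268 on chr12 and ZNF263 on chr16. RefSeq promoters (GRCh38.p14, 300 bases each) were at hand for 61 of these genes, in 9 of the intervals. They held a median of 21 CG dinucleotides, against 14 over 34943 RefSeq promoters. The motif GGGCGG, on either strand, was in 52.5% of them, against 44.9% of all promoters. TATAAA, on either strand, was in 1 of the 61 (1.64%), against 11.6% of all. All 7 promoters of chr12 and all 7 of distal chr7 held at least 20 CG, while 1 of 10 on proximal chr7 did.

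The promoter with the most CG is printed for the intervals on chr12 and chr5, which were highest in H3K9me3, and chr6, which was lowest, as examples of the promoters in these intervals. The median promoter held 29 CG on chr12, 30 on chr5 and 18 on chr6. Capitals mark CG. The positions are of GRCh38.p14 and cannot be set beside the hg19 positions of the regions. ZNF10 (chr12:133130377-133130676, plus strand) has 46 CG, ZNF354C (chr5:179060123-179060422, plus strand) has 33 and ZKSCAN4 (chr6:28259162-28259461, minus strand) has 28.
ZNF10: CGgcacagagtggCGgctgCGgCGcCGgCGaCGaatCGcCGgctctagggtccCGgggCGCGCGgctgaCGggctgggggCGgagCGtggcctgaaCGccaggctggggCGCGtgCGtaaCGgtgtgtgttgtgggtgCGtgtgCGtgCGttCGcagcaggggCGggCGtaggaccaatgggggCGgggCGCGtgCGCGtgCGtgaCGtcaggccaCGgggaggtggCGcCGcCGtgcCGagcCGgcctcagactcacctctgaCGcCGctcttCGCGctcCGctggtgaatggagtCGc
ZNF354C: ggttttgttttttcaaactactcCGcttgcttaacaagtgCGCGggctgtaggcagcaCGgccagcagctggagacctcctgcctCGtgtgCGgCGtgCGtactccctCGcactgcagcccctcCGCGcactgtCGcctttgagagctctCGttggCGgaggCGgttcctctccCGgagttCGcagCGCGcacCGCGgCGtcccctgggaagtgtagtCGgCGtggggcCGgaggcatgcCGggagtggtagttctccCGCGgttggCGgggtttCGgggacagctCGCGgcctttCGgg
ZKSCAN4: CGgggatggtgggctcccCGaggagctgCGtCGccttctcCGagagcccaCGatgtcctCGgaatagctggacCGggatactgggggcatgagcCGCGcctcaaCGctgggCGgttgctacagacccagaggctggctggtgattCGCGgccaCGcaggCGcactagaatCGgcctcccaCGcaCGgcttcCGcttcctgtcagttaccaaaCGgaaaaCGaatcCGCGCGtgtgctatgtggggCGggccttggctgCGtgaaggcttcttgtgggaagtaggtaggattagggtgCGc

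Totals over all regions were 2103185 to 2880412 counts in the H3K9me3 libraries, 11023905 to 13933927 for H3K4me3, 3920283 to 4936265 for H3K4me1 and 2955710 to 3681687 for H3K27ac. Values are CPM, counts divided by a library's total so that all libraries share 1 scale. That total was the sum over regions or tiles past a filter on low counts, adjusted by the trimmed mean of M values (TMM). Levels given as times the series mean used the totals over all regions instead. TMM was computed over regions for region values and interval sums. For the fits and CPM of 50-kb tiles, described below, it was computed over tiles. Tile values are therefore not on the same scale as region values and sums. CPM is relative within a library, so a change of a mark across the whole genome would not be seen. In H3K4me1 and H3K27ac, the calls rose most when the ctrl library of replicate 3 was left out. Over all regions they became 2443 for H3K4me1, against 0 with it, and 1412 for H3K27ac, against 7.

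H3K9me3 was the mark that most set the clusters apart from the series mean. Summed over the 10 intervals and both groups, it was 7.16 ± 0.69 times the mean of all regions per Mb (SD, n = 6 libraries). The same figure was 1.92 for flanks of up to 1 Mb on each side, 3.68 for the zinc finger gene cluster of chromosome 19p12 (612 regions) and 4.47 for those of 19q13.4 (830 regions). Part of this density came from more and wider regions: per kb of region length the clusters were at 1.77 times the series. All 10 intervals were above the series mean.

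The intervals ranged widely. Chr12 was highest at 22.0 ± 2.75 times the series mean and chr5 next at 14.2 ± 1.71 (SD, n = 6), and their library values did not overlap with each other or with the next. Chr8 followed at 8.78, chr16 at 7.94, chr3 at 6.63, chr1 at 6.20, proximal chr7 at 5.95 and chr10 at 5.70, and each of these overlapped with its neighbour in the order. Distal chr7 at 1.99 and chr6 at 1.65 were lowest, did not differ beyond their spread, and lay near the flanks. In 50-kb tiles, in which the counts of all regions that start there were summed, 67 of the 123 cluster tiles with regions (54.5%) were in the top 5% of 44715 tiles for H3K9me3. All 8 chr12 tiles were in the top 1%.

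H3K4me3 was 2.81 times the series mean over the 10 intervals, and it gave another order. Chr8 was highest at 7.93 times the series mean, followed by chr16 at 5.76, chr6 at 4.91 and distal chr7 at 4.08. Proximal chr7 at 0.816 and chr5 at 0.784 were lowest and overlapped, with chr10 just above them at 0.985. Chr6 was thus lowest in H3K9me3 and among the 3 highest in H3K4me3, and chr5 second in H3K9me3 and lowest in H3K4me3. H3K4me1 was below the series mean over the 10 intervals, at 0.682 times, and above it in 3 of them. H3K27ac was at 1.36 times, from 0.469 on proximal chr7 to 3.63 on chr8.

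**Figure D1:**
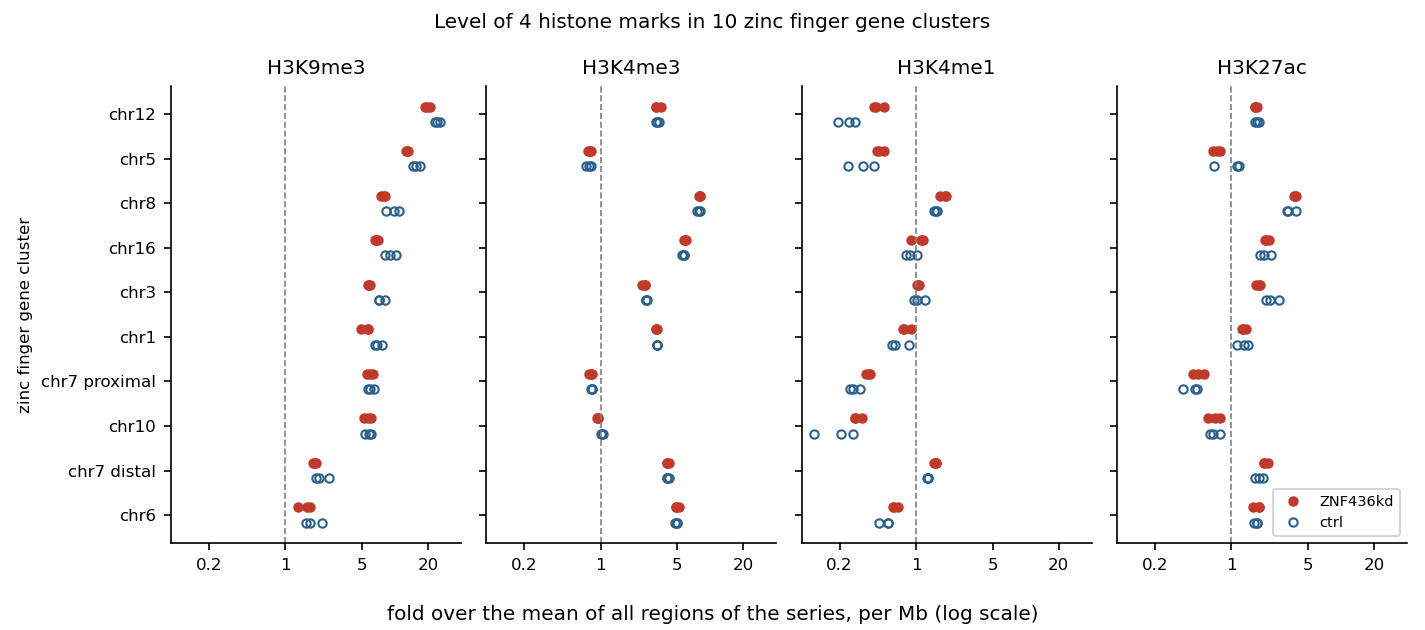
Level of each mark in the 10 intervals, as fold over the mean of all regions per Mb (x axis, log scale), with 1 point per library (ZNF436kd filled and above, ctrl open and below). Chr12 and chr5 lead in H3K9me3 and chr8 in the other 3 marks.

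A mark was called present in a region where its mean level over 6 libraries was in the top 20% of all regions. H3K9me3 was present in 433 of the 818 regions (52.9%), against 20% of all regions by construction. H3K9me3 stood without the other 3 marks in 422 of the 818 (51.6%), against 19.6% of all, 52.3% in 19p12 and 43.3% in 19q13.4. The shares of regions with H3K9me3, whatever other marks they carried, ran from 76.6% on chr12 and 69.0% on chr5 to 24.2% on chr6 and 23.5% on chr16. Regions of the clusters with H3K9me3 were also wider, with a median of 1122 bp against 703 bp for all H3K9me3 regions.

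H3K4me3 was present in 150 of the cluster regions (18.3%), near the share of all regions, but in 69.7% of those on chr6 and 4.96% of those on chr10. This threshold is low for H3K4me3, which is concentrated in few regions, so weak regions are among them. H3K4me1 was present in 20 (2.44%) and H3K27ac in 70 (8.56%). None of the 4 marks was present in 222 (27.1%), against 39.9% of all regions.

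H3K9me3 and H3K4me3 lay close together, mostly in separate regions. Both were present in 11 cluster regions (1.34%), a larger share than the 0.358% of all. From a cluster region with H3K9me3 to the nearest region with H3K4me3 the median distance was 31.2 kb, against 91.8 kb over all H3K9me3 regions, 63.0 kb in 19p12 and 37.1 kb in 19q13.4. It was 3.36 kb on chr6, 5.61 kb on chr3, 7.92 kb on chr12 and 10.3 kb on chr16, and 50.6 kb on proximal chr7 and 65.3 kb on chr10. Of the 433 regions, 99 (22.9%) had H3K4me3 within 10 kb, against 10.03% of all, 6.77% in 19p12 and 29.5% in 19q13.4. With presence set at the top 10%, the median distance was 28.8 kb, against 131 kb over all, 58.5 kb in 19p12 and 23.9 kb in 19q13.4. The clusters were thus not closer than 19q13.4 by every measure.

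Individual regions show how the marks lay. On chr12, at chr12:133653871-133658428, its strongest H3K4me3 region, H3K4me3 averaged 81.2 CPM and H3K9me3 49.6 CPM over 6 libraries each, so both marks were present in the same region. On chr16 the 2 marks sat side by side: chr16:3331877-3335073 had 105 CPM of H3K4me3 and 6.45 of H3K9me3, and chr16:3337900-3346260 next to it had 181 CPM of H3K9me3 and 1.31 of H3K4me3. On chr6 the H3K9me3 was in few places, and 1 region (chr6:28153694-28163420) held 52.6% of the interval's H3K9me3 counts. On proximal chr7 it was spread, with no region above 3.06% of the interval's H3K9me3.

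**Figure D2:**
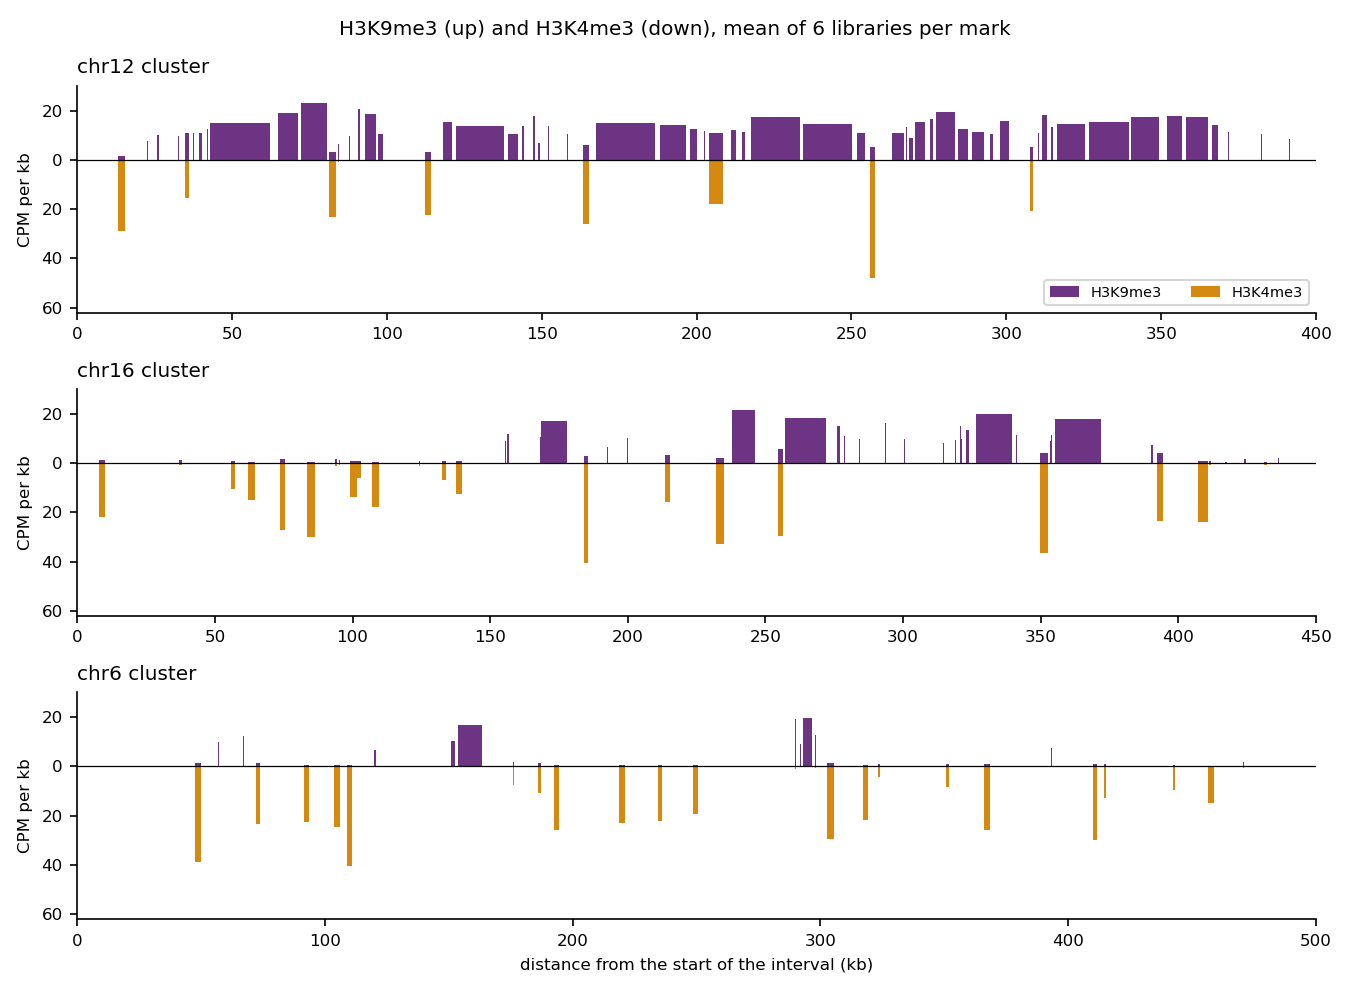
H3K9me3 (bars up) and H3K4me3 (bars down) along the chr12, chr16 and chr6 intervals, in CPM per kb of region (mean of 6 libraries), against the distance from the interval's start in kb. Wide H3K9me3 blocks lie between narrow H3K4me3 regions on chr12 and in the last part of chr16, and chr6 holds mostly H3K4me3.

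ZNF436kd was compared with ctrl within each mark, to ask which regions differed in cells labelled as knocked down for a KRAB zinc finger gene. No cluster region and no cluster tile was called in any mark at an adjusted p below 0.05 (edgeR quasi-likelihood test, Benjamini-Hochberg over all regions or tiles). Over all regions, the share called was 0.00654% higher and 0.00327% lower for H3K9me3, 0.374% and 0.187% for H3K4me3, 0% and 0% for H3K4me1, and 0.00813% and 0.00325% for H3K27ac. Over all tiles it was 0.00828% higher and 0.00414% lower for H3K9me3, 0.503% and 0.271% for H3K4me3, 0% and 0% for H3K4me1, and 0.0914% and 0.0105% for H3K27ac. A count of 0 in the clusters is therefore near this background.

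The count was not 0 under every setting. DESeq2 called 5 cluster regions in H3K9me3, 1 in H3K4me3 and 1 in H3K27ac, all lower in ZNF436kd. That is 8.47%, 0.826% and 0.794% of the cluster regions given an adjusted p, against 3.01%, 0.924% and 0.55% of all such regions. It also called 18 H3K9me3 tiles (26.9%, against 14.7% of all) and 1 H3K27ac tile (1.18%, against 1.13%), again all lower. DESeq2 gave an adjusted p to 2144 of the H3K9me3 tiles, fewer than the 24145 tested by edgeR.

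With edgeR, a block for the replicate number gave 9 H3K9me3 tiles, all lower (8.49%, against 0.758% of all). Without the count filter, 1 H3K4me3 region (0.152%, against 0.238%) and 1 H3K27ac tile (0.813%, against 0.516%) were called lower. Leaving out ctrl replicate 3 gave 8 higher H3K4me1 tiles (6.96%, against 3.11%), 1 lower H3K9me3 tile (0.893%, against 0.123%) and 2 lower H3K27ac tiles (1.72%, against 2.14%). Among regions it gave 1 lower in H3K4me3 (0.629%, against 0.964%), 1 higher and 1 lower in H3K4me1 (0.505% each, against 1.61% and 1.1%) and 1 higher and 1 lower in H3K27ac (0.45% each, against 1.54% and 0.422%). For each H3K9me3 count given here, 1 of them a single tile, the cluster share was above that of all regions or tiles. The H3K4me3 counts were all of the same region, chr7:64734012-64735144, too few to read as a pattern.

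At an unadjusted p below 0.05, 18 of the 417 cluster regions tested for H3K9me3 were higher and 31 lower in ZNF436kd, that is 4.32% and 7.43%, against 3.99% and 4.32% of all regions tested. For H3K4me3 these were 1 higher and 4 lower of 151 (0.662% and 2.65%, against 5.26% and 4.93%). For H3K4me1 they were 14 and 3 of 165 (8.48% and 1.82%, against 4.91% and 5.58%), and for H3K27ac 10 and 7 of 186 (5.38% and 3.76%, against 5.91% and 5.35%). The regions tested are those past the count filter, which left out the other regions of the 818. A region low in 1 group could pass the filter through the other group alone. The excess was of lower H3K9me3 and of higher H3K4me1, while H3K4me3 had fewer low p than the background. Regions whose groups did not overlap leaned the same way. For H3K9me3 there were 24 higher and 46 lower of 417 (5.76% and 11%, against 7.17% and 7.19% of all), and for H3K4me1 25 higher and 8 lower of 165 (15.2% and 4.85%, against 7.9% and 7.68% of all).

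H3K9me3 was lower in ZNF436kd in several intervals when their counts were summed. On chr16 it was 2573, 2762 and 2636 CPM per Mb in ZNF436kd, against 3580, 3346 and 3089 in ctrl, a log2 ratio of -0.33. On chr12 it was 7636, 7371 and 8153 in ZNF436kd, against 8974, 8951 and 9012 in ctrl, a log2 ratio of -0.22. All ZNF436kd libraries were below all ctrl libraries on both, and likewise on chr1 (log2 ratio -0.29), chr3 (-0.27) and chr5 (-0.20). The ZNF436kd mean was lower in 8 of the 10 intervals, and 5 had no overlap between groups. Over all 10 together H3K9me3 was 2541, 2516 and 2701 CPM per Mb in ZNF436kd, against 2865, 2757 and 2901 in ctrl, a log2 ratio of -0.14 with no overlap.

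Proximal chr7 and chr10 were the other two. Proximal chr7 had 2309, 2177 and 2506 CPM per Mb in ZNF436kd, against 2050, 2092 and 2456 in ctrl. Chr10 had 2022, 2240 and 2380 in ZNF436kd, against 2038, 1995 and 2327 in ctrl. The groups overlapped on both, and their means were 5.96% and 4.42% higher in ZNF436kd. Leaving out 1 library moved the log2 ratio of proximal chr7, 0.08, to between 0.03 without ZNF436kd replicate 3 and 0.17 without ctrl replicate 3, where the groups no longer overlapped. That of chr10, 0.06, ran from 0.0073 to 0.13 without the same libraries. Both directions turned when TMM was computed over all regions without the count filter, which moved all H3K9me3 log2 ratios by -0.17: proximal chr7 was then at -0.09 and chr10 at -0.11. Over the flanks the sums also overlapped, with 743, 731 and 773 CPM per Mb in ZNF436kd and 650, 716 and 760 in ctrl. These sums were compared by value only, and from bulk cells it cannot be told apart whether fewer cells carried the mark or each carried less.

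**Figure D3:**
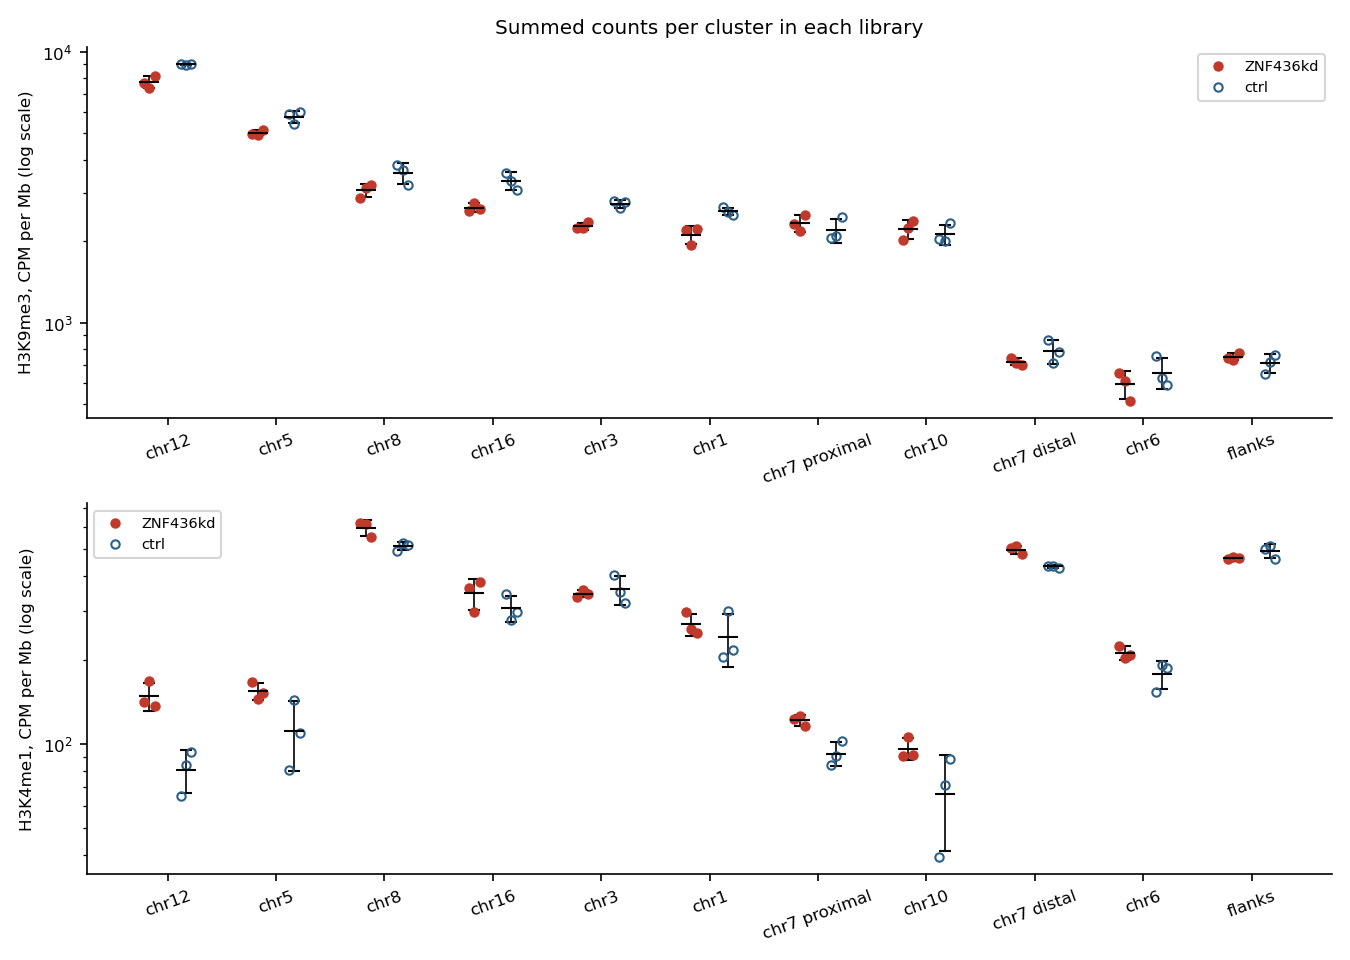
H3K9me3 (top) and H3K4me1 (bottom) summed per interval, in CPM per Mb (log scale), for each library of ZNF436kd (filled, left of each pair) and ctrl (open, right), with the mean and SD of 3 libraries; the last pair gives the flanks. H3K9me3 is lower in ZNF436kd without overlap on chr12, chr5, chr16, chr3 and chr1, and H3K4me1 is higher without overlap in 7 intervals.

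Tiles, on their own TMM scale and from the same counts as the sums, showed the same lean. Of the 106 cluster tiles tested for H3K9me3, 30 (28.3%) were lower in ZNF436kd with no overlap between groups and 4 (3.77%) higher, against 8.44% and 9.04% of all tiles. Of those 30, 6 lay on chr12 (of 8 tested), 5 on chr1 (of 8), 4 on chr16 (of 8) and 0 on chr10 (of 16). At an unadjusted p below 0.05, 32 were lower and 5 higher (30.2% and 4.72%, against 6.31% and 5.69%). The median log2 fold change was -0.17 in cluster tiles and 0.01 over all tiles.

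The fold change also moved with the level of a tile outside the clusters, and cluster tiles are mostly high. Among tiles outside the clusters the median log2 fold change was 0.36 in the lowest 10% by H3K9me3 level and -0.22 in the highest 10%. In that highest 10% the 67 cluster tiles had a median of -0.26, with 83.6% below 0, against 81.0% of 2348 other tiles. With loess offsets, which remove a trend with level, the median of the cluster tiles was -0.03, against -0.02 over all tiles. Among other tiles the trend did not hold to the top: their median was -0.24 between the 98th and the 99th percentile and -0.07 in the highest 1%.

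With loess offsets the intervals went both ways, which the median over all cluster tiles hides. Of the 5 intervals whose sums were lower without overlap, the tile medians with loess offsets were -0.26 on chr16, -0.25 on chr1, -0.18 on chr12, -0.17 on chr3 and -0.03 on chr5. Those of proximal chr7 and chr10, whose sums overlapped, were 0.16 and 0.09. Without loess offsets their tiles did not lean higher. On proximal chr7, 3 of 25 tiles tested were lower with no overlap and 0 higher, and on chr10 0 of 16 were lower and 0 higher. In the highest 1% of tiles by level, all 12 cluster tiles were below 0, with a median of -0.41, against -0.07 over 230 other tiles. In the 2 steps of level between the 90th and the 98th percentile, the cluster medians were -0.16 and -0.15, against -0.24 and -0.25 in other tiles. The difference from other tiles thus changed sign with level, and with so few tiles a step it was given no test.

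**Figure D4:**
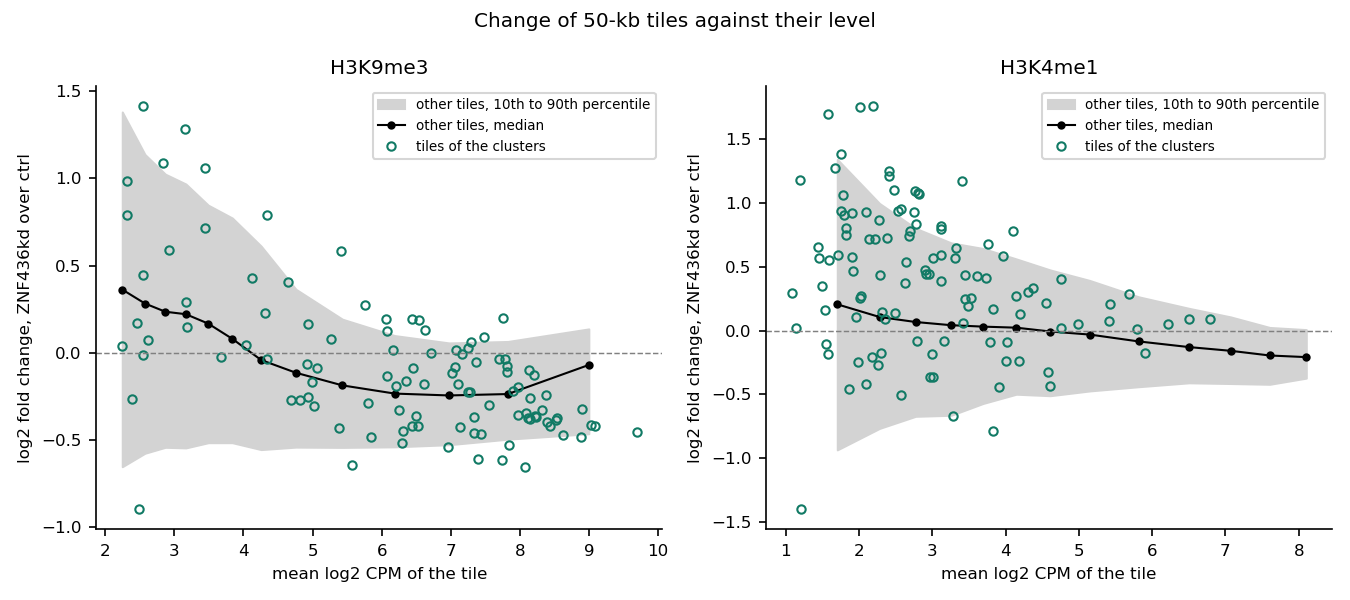
Log2 fold change of ZNF436kd over ctrl in 50-kb tiles (y axis) against the tile's mean log2 CPM (x axis) for H3K9me3 and H3K4me1. The line gives the median of tiles outside the clusters in steps of level, the band their 10th to 90th percentile, and circles the cluster tiles; in H3K9me3 both fall with level, except that the line rises in the last step, and in H3K4me1 most circles lie above the line.

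The tile of smallest p for H3K9me3 was chr16:3350001-3400000. It had 192, 209 and 240 CPM in ZNF436kd, against 380, 311 and 322 in ctrl, a log2 fold change of -0.66 ± 0.17 (SE) with an adjusted p of 0.103 (edgeR). All ZNF436kd libraries were below all ctrl libraries. The adjusted p was 0.00203 with DESeq2, so this tile is among those whose call depends on the tool.

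Within and beside it lay the 2 lower regions of smallest p. At chr16:3337900-3346260, H3K9me3 was 153, 156 and 132 CPM in ZNF436kd, against 219, 228 and 198 in ctrl (log2 fold change -0.55 ± 0.16, adjusted p 0.226, edgeR). At chr16:3356995-3371886 it was 204, 226 and 254 CPM in ZNF436kd, against 353, 310 and 306 in ctrl (log2 fold change -0.50 ± 0.14, adjusted p 0.244, edgeR). The groups did not overlap at either. The third was chr12:133713196-133716918, with 34.3, 26.2 and 27.5 CPM in ZNF436kd, against 50.3, 50.5 and 53.7 in ctrl (log2 fold change -0.82).

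The densest H3K9me3 region of most intervals leaned the same way. It was lower in ZNF436kd with no overlap on chr8, chr3, chr1, chr12 and chr16, and overlapped on chr6, distal chr7 and proximal chr7. On chr1, chr1:247145733-247153909 had 135, 124 and 159 CPM in ZNF436kd, against 202, 180 and 203 in ctrl (log2 fold change -0.48 ± 0.16, adjusted p 0.332, edgeR). On proximal chr7, chr7:64954184-64955697 had 55.5, 71.3 and 73.3 CPM in ZNF436kd, against 59.9, 66.6 and 84.9 in ctrl. The densest regions of chr10 (183 bp) and chr5 (75 bp) held 31 and 25 counts in the ZNF436kd libraries, against 21 and 8 in ctrl, and were not tested.

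The 3 higher H3K9me3 regions of smallest p lay on chr8, chr10 and chr12. At chr8:145909241-145912329, where H3K4me3 averaged 103 CPM, H3K9me3 was 10.9, 10.7 and 7.63 CPM in ZNF436kd, against 2.4, 2.15 and 1.73 in ctrl (log2 fold change 2.18, adjusted p 0.309, edgeR). The counts behind it were 59 in ZNF436kd and 13 in ctrl, and it passed the count filter only through ZNF436kd. Chr10:38080743-38082133 and chr12:133540608-133541378 followed with log2 fold changes of 1.38 and 1.25. All 3 had no overlap between groups. Per kb of region, H3K9me3 averaged 1.91 CPM at the chr8 region, 9.56 at the chr10 region and 20.8 at the chr12 region, against 21.7 and 18.5 at the chr16 regions above, which are wider. Among tiles, chr16:3150001-3200000 was the higher one of smallest p, with 20.1, 9.42 and 10.4 CPM in ZNF436kd, against 3.63, 8.47 and 4.17 in ctrl (adjusted p 0.284, edgeR).

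H3K4me1, low in these clusters, was higher in ZNF436kd. On chr12 it was 142, 168 and 136 CPM per Mb in ZNF436kd, against 65.3, 84.3 and 93.5 in ctrl, a log2 ratio of 0.88. On chr10 it was 90.8, 106 and 91.6 in ZNF436kd, against 39.4, 71.5 and 88.3 in ctrl, a log2 ratio of 0.53. The chr10 ratio was 0.27 without ctrl replicate 1 and 0.79 without ctrl replicate 3, and its groups overlapped with TMM over unfiltered regions. The means were higher in 9 of 10 intervals and the groups did not overlap in 7 (6 with TMM over unfiltered regions). Chr3 was the exception at a log2 ratio of -0.06 with overlapping groups, and it was at 0.04 without ctrl replicate 1. Chr12 and chr10 are among the intervals poorest in this mark.

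Of 110 cluster tiles tested for H3K4me1, 22 (20%) were higher with no overlap and 0 lower, against 9.29% and 8.51% of all tiles. At an unadjusted p below 0.05, 11 (10%) were higher and 0 lower, against 5.91% and 7.12% of all. The median log2 fold change of cluster tiles was 0.38, against -0.02 over all tiles, and it was 0.28 with loess offsets. Cluster tiles were also above other tiles of like level: in the lowest 10% by level the medians were 0.57 in 27 cluster tiles and 0.21 in 3160 others, and between the 20th and the 30th percentile 0.55 in 20 and 0.07 in 3167. The clusters of 19p12 and 19q13.4 had medians of 0.44 and 0.30, so higher H3K4me1 was not particular to the 10 intervals.

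The tile with the smallest p was chr7:63500001-63550000. It had 5.40, 7.08 and 7.03 CPM in ZNF436kd, against 1.35, 2.4 and 2.02 in ctrl (log2 fold change 1.75 ± 0.55, adjusted p 0.233, edgeR), from 87 counts in ZNF436kd and 24 in ctrl. Among regions, chr16:3426399-3439409 had 3.11, 4.4 and 5.39 CPM of H3K4me1 in ZNF436kd, against 1.35, 0.489 and 1.56 in ctrl. That region is an H3K9me3 block of 261 CPM. At chr12:133653871-133658428, which carried both H3K9me3 and H3K4me3, H3K4me1 was 6.74, 2.93 and 3.32 CPM in ZNF436kd, against 1.35, 1.71 and 0.520 in ctrl. Neither region passed the adjusted threshold. Both regions, and the tile, passed the count filter only through ZNF436kd, so they are no separate support for the lean.

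The first 100 kb of the chr3 interval held lower values in ZNF436kd, most of all in H3K27ac. At chr3:44480565-44482127, H3K27ac was 21.8, 18.9 and 16.95 CPM in ZNF436kd, against 54.8, 39.6 and 42.9 in ctrl (log2 fold change -1.25 ± 0.31, adjusted p 0.124, edgeR). At chr3:44400408-44402044 it was 18.4, 22.7 and 20.03 CPM in ZNF436kd, against 61.3, 36.3 and 24.96 in ctrl (log2 fold change -1.01). H3K4me1 at this second region was 12.7, 16.4 and 15.98 CPM in ZNF436kd, against 29.7, 28.8 and 19.5 in ctrl (log2 fold change -0.79, adjusted p 0.315, edgeR). No group pair overlapped, and H3K9me3 was under 2 CPM at both. H3K4me3, weak there, was also lower with no overlap in both 50-kb tiles (log2 fold changes -1.08 and -1.04, adjusted p 0.365 and 0.512, edgeR). The H3K4me1 of both tiles overlapped between groups (-0.17 and -0.44).

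The tile that holds the first of them, chr3:44450001-44500000, had 29.3, 29.1 and 22.9 CPM of H3K27ac in ZNF436kd, against 69.4, 42.8 and 64.5 in ctrl. Its log2 fold change was -1.12 ± 0.28 with an adjusted p of 0.0948 (edgeR), and 0.0173 with DESeq2. Summed over the chr3 interval, H3K27ac was 646, 664 and 609 CPM per Mb in ZNF436kd, against 966, 804 and 759 in ctrl. Not every region there was lower: chr3:44447469-44448687, chosen after its values were seen, averaged 20.5 CPM of H3K27ac in ZNF436kd and 9.26 in ctrl with the groups overlapping, and H3K4me1 at chr3:44445238-44445980 was higher with no overlap (log2 fold change 1.33).

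The other named H3K27ac regions differed in their marks. Chr1:247273791-247276223, with 94.5 CPM of H3K4me3, had 49.3, 40.5 and 44.7 CPM of H3K27ac in ZNF436kd, against 26.9, 22.0 and 26.1 in ctrl (log2 fold change 0.84 ± 0.29, adjusted p 0.260, edgeR). Chr8:146014156-146019742, with 178 CPM of H3K4me3, had 73.5, 76.1 and 59.2 CPM in ZNF436kd, against 45.8, 44.1 and 47.4 in ctrl. Both had no overlap. The remaining pair had no H3K4me3 by the threshold above. Chr7:64725280-64725997 had 4.76, 7.58 and 6.47 CPM in ZNF436kd, against 1.38, 0.734 and 0 in ctrl. Chr16:3268518-3277776, an H3K9me3 block of 157 CPM, had 0.68, 0.758 and 4.93 CPM in ZNF436kd, against 7.58, 8.44 and 17.6 in ctrl. The adjusted p were 0.264 and 0.237 (edgeR). Each of the pair passed the count filter only through its higher group. Summed per interval, H3K27ac was lower without overlap on chr3, higher without overlap on distal chr7 (log2 ratio 0.21), and overlapped on 8. Over all 10 together the log2 ratio was 0.03 without overlap. The groups overlapped there with TMM over unfiltered regions and with library totals. Of the cluster regions tested for H3K27ac, 19 were higher and 11 lower with no overlap (10.2% and 5.91%), against 9.14% and 8.37% of all. Of 115 tiles tested, 13 were higher and 6 lower with no overlap (11.3% and 5.22%, against 9.92% and 9.07%), and 7 and 3 had an unadjusted p below 0.05 (6.09% and 2.61%, against 6.78% and 7.12%).

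H3K4me3 was nearly level. Summed over all 10 intervals it averaged 929 CPM per Mb in ZNF436kd and 922 in ctrl, with the groups overlapping, and the median log2 fold change of the 151 regions tested was 0.02. Of those, 9 were higher and 11 lower with no overlap (5.96% and 7.28%, against 8.49% and 7.74% of all). Of 95 tiles tested, 8 were higher and 10 lower with no overlap (8.42% and 10.5%, against 8.75% and 7.66%), and 1 and 3 had an unadjusted p below 0.05 (1.05% and 3.16%, against 5.74% and 4.98%). The lower region of smallest p was chr7:64734012-64735144, with 23.1, 22.1 and 25.8 CPM in ZNF436kd, against 33.0, 38.7 and 30.6 in ctrl (log2 fold change -0.53 ± 0.14, adjusted p 0.115, edgeR). It was called by DESeq2 (adjusted p 0.0289), without the count filter and without ctrl replicate 3.

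Chr10 was lower in H3K4me3, at 316, 304 and 311 CPM per Mb in ZNF436kd, against 341, 329 and 343 in ctrl. Its region chr10:38264377-38266176 had 26.9, 27.6 and 22.6 CPM in ZNF436kd, against 34.6, 34.0 and 31.6 in ctrl (log2 fold change -0.38). Chr16 was slightly higher, at 1940, 1958 and 1906 CPM per Mb in ZNF436kd, against 1869, 1885 and 1811 in ctrl. The groups did not overlap on either. The higher H3K4me3 region of smallest p, chr12:133766260-133775380, was weak, with 0.933, 1.35 and 1.82 CPM in ZNF436kd, against 0.336, 0.146 and 0.688 in ctrl (adjusted p 0.381, edgeR). That region passed the count filter only through ZNF436kd. The strongest H3K4me3 region of each interval overlapped between groups on 8 of the 10, with chr10:38298678-38300989 lower and chr16:3331877-3335073 higher without overlap.

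**Figure D5:**
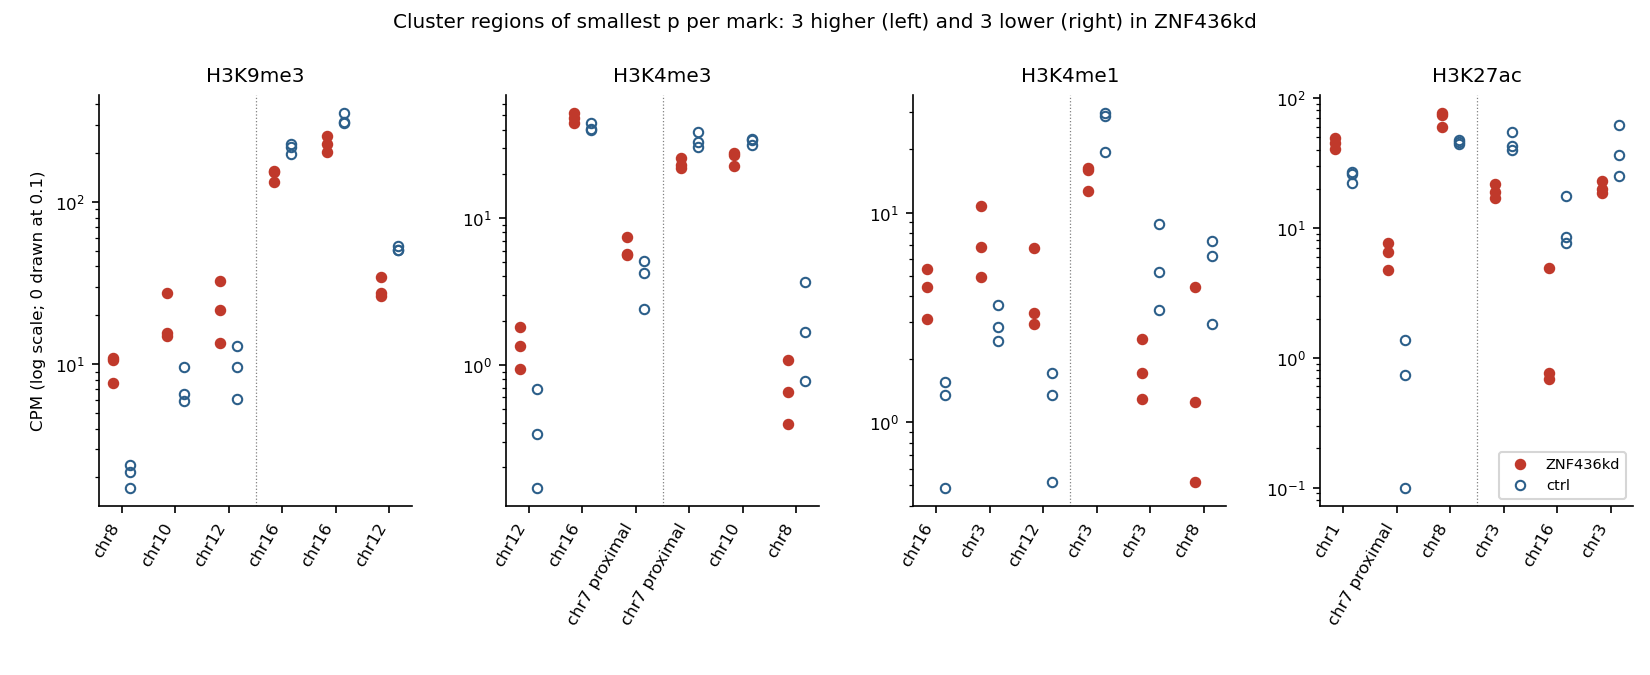
CPM (log scale, 0 drawn at 0.1) in each library for the 3 higher (left of the dotted line) and 3 lower cluster regions of smallest p in each mark, with ZNF436kd filled and left and ctrl open and right. No region passed the adjusted threshold; the groups overlap only at the chr8 regions of H3K4me3 and H3K4me1.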

How the data were processed

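The authors deposited whole-number counts per region, 1 file a library, over 1 shared list of regions. Build hg19, deepTools 3.5.4, bedtools 2.30.0 and Bowtie2 2.4.5 are listed in the submitters' processing notes. Region calling, read filters and the libraries behind the list are not given in the sources used here. Most counts were even numbers (51.9% to 65.9% of the values above 0 per library), so they may hold both mates of a pair.

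Member regions start in the 10 intervals. The members and gene list were chosen with earlier results of these data known. Each mark was fitted over all regions, and over all 50-kb tiles, with edgeR 4.0.16 (filterByExpr, TMM, robust quasi-likelihood test), after the script was tested on simulated data. Same-mark replicates differed by more than counting noise (chi-square per degree of freedom 3.16 to 10.3). Alternatives were RLE, library totals over what passed the filter, loess offsets (span 0.3), DESeq2 1.42.0, no filter, a replicate block and leaving out each library. Interval sums used CPM per Mb of interval, and folds over the series mean used counts over the totals of all regions. Presence used log2 CPM per kb (0.01 added). Regions named are the densest in H3K9me3 and the strongest in H3K4me3 of each interval and, per mark, the 3 higher and 3 lower of smallest p; tiles are the 1 of smallest p in each direction. RefSeq promoters were matched by symbol.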

Additional observations from a re-analysis of the deposited data

How the results depend on the processing

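Of the counts of cluster regions called, all 0 with edgeR, DESeq2 gave 5 for H3K9me3, 1 for H3K4me3 and 1 for H3K27ac, and no filter gave 1 for H3K4me3. Leaving out 1 library gave 0 to 1 for H3K4me3, 0 to 2 for H3K4me1 and 0 to 2 for H3K27ac. Of the tile counts, also 0, DESeq2 gave 18 for H3K9me3 and 1 for H3K27ac, no filter gave 1 for H3K27ac, and leaving out 1 library gave 0 to 1 for H3K9me3, 0 to 8 for H3K4me1 and 0 to 2 for H3K27ac; the highest of each was without ctrl replicate 3. The deviations of same-numbered libraries were weakly correlated between groups (r of -0.118 to 0.0899), which cannot tell whether the numbers pair the samples. Over regions, 4 of 6 H3K9me3 libraries, and 10 of 24 over all marks, correlated best with their own number in the other group. A replicate block gave 9 H3K9me3 tiles and changed no other of these counts. The H3K9me3 level of 7.16 became 6.13 without the strongest region of each interval and 1.77 per kb of region, and 216 regions carried H3K9me3 at a top 10% threshold. At chr7:64954184-64955697 the H3K9me3 log2 fold change of -0.08 became 0.0395 with loess offsets and ran from -0.2222 to 0.0643 on leaving out 1 library, above 0 without ctrl replicate 3 and without ZNF436kd replicate 1 (0.0053). Over the whole series, edgeR calls in H3K9me3, H3K4me3, H3K4me1 and H3K27ac regions (3, 150, 0 and 7) became 49, 456, 94 and 669 with DESeq2, 3, 666, 208 and 599 without the filter, 6, 177, 94 and 102 with the block, and 15, 805, 2443 and 1412 without ctrl replicate 3. Other scalings of the interval sums were added after seeing the data. RLE and library totals, both over regions past the count filter, kept the means of 8 intervals lower in H3K9me3 and 9 higher in H3K4me1. Totals over all regions were not tried as a scaling of these sums. TMM over unfiltered regions made all 10 lower in H3K9me3, and the filtered library totals moved H3K27ac from 7 to 5 higher. The causes were not tested. Low counts limit H3K9me3 and H3K4me1 at narrow regions.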
